A study of Homo sapiens with 18 samples.

Results

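Potassium channel genes were taken as the protein-coding genes whose symbol starts with KCN, 96 of 19675 protein-coding genes with a located start. They were grouped by the letters of the symbol. Pore-forming alpha subunits of voltage-gated channels were KCNA, KCNB, KCNC, KCND, KCNF, KCNG, KCNH, KCNQ, KCNS and KCNV. Inward rectifiers were KCNJ, and tandem-pore leak channels KCNK. KCNMA, KCNN, KCNT and KCNU were counted as the calcium- or sodium-activated group. KCNAB, KCNE, KCNIP, KCNMB and KCNRG were counted as auxiliary or regulatory genes. The letters do not tell how each member is gated. Peaks of 2 histone marks were mapped in V16D, a castration-resistant prostate cancer line derived from LNCaP, after transduction with a control lentivector (V16D/CTL) or with a lentivector overexpressing the long noncoding RNA H19 (V16D/H19). Each mark was profiled in 3 libraries per cell group, labelled biological triplicates, and each library was set against its own input. Every V16D/CTL and V16D/H19 culture carried a lentivector and grew in serum-containing medium, so that neither group represents untransduced cells. The labels do not say whether a group was a single clone.

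Trimethylation of lysine 4 on histone H3 (H3K4me3) marks promoters that are active or open to activation. Trimethylation of lysine 27 (H3K27me3) is deposited by the Polycomb complex PRC2 and marks silenced genes, among them many ion channel genes in cells that are not excitable. Promoters that carry both marks are called bivalent, a state known from stem cells in which a gene is silent but can be switched on or off. Potassium channels set the resting potential and repolarise the membrane, and in neurons and neuroendocrine cells they shape electrical activity and secretion.

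The labelled cell type was compared with its markers first. All 6 luminal prostate markers (KLK2, KLK3, KRT8, KRT18, TMPRSS2 and HOXB13) carried promoter H3K4me3 in all 6 libraries and no H3K27me3 peak. Of 3 leukocyte markers, 0 had H3K4me3 at the promoter in any library, and of 3 fibroblast markers only COL1A1 had it. Among neuroendocrine markers, SYP had H3K4me3 in all 6 libraries, INSM1 in 1 V16D/H19 library, and CHGA in none. The lists held 20048 to 21934 H3K4me3 peaks and 55060 to 72289 H3K27me3 peaks per library. The Mb covered by H3K27me3 peaks were 45.06, 58.82 and 62.17 for V16D/CTL, and 42.27, 47.5 and 48.4 for V16D/H19. The read depth is not known from these files, and a promoter without a peak may hold signal below the calling threshold.

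The promoter of a gene was the window 1 kb either side of its RefSeq 5′ end. Promoters of 66 potassium channel genes carried a peak of either mark in some library, and 30 carried none. The sequences below are those of 5 starts at which a peak was called in all 3 libraries of one group and in none of the other. Each runs from 250 bases before to 50 bases after the start (RefSeq, GRCh38.p14), in the direction of transcription, with CpG dinucleotides in capitals. The first 3 are the genes' own 5′ ends, and KCNK2 and KCNN1 are second starts inside the genes that were chosen after their values were seen. They lie at chr12:4809084-4809383 on the plus strand (KCNA6), chr14:63045409-63045708 on the minus strand (KCNH5), chr1:111989619-111989918 on the minus strand (KCND3), chr1:215082487-215082786 on the plus strand (KCNK2) and chr19:17966857-17967156 on the plus strand (KCNN1).
KCNA6: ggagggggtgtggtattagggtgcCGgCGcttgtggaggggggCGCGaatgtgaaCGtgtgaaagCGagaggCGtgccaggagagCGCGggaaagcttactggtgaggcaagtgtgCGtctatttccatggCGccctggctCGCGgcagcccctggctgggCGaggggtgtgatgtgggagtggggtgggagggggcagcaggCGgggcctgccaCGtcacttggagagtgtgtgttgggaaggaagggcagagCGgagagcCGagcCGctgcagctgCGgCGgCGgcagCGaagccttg
KCNH5: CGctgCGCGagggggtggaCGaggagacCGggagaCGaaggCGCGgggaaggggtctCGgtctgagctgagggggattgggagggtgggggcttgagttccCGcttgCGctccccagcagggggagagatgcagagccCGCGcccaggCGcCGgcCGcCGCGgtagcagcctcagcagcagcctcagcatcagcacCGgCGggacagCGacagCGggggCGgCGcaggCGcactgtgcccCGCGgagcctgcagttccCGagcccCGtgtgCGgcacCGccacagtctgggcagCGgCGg
KCND3: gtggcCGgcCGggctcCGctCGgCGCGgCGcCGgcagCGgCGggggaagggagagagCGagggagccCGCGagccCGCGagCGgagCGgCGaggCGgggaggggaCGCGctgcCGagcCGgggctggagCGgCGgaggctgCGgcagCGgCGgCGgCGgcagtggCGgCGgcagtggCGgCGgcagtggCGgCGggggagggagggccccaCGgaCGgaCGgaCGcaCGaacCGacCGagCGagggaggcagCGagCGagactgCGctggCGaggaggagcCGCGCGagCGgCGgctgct
KCNK2: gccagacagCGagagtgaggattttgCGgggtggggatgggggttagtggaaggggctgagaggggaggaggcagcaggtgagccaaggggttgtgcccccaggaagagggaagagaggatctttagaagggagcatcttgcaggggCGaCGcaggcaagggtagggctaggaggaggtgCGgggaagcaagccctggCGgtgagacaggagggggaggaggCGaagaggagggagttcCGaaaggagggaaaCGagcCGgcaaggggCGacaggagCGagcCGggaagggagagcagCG
KCNN1: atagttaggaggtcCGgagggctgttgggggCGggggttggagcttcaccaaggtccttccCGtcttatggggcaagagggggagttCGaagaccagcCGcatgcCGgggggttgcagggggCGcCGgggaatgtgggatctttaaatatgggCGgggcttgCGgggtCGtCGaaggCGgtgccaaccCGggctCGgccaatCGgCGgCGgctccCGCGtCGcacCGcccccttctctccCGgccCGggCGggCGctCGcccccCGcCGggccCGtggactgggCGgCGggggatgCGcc

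All 5 windows were rich in G and C, from 64.7% at KCNK2 to 81.7% at KCND3. The number of CpGs was 14 at KCNK2, 23 at KCNA6, 33 at KCNH5, 33 at KCNN1 and 53 at KCND3. The observed CpG count over that expected from the base composition was 0.63, 0.81, 0.82, 0.88 and 1.16 in the same order. The GC box GGGCGG, searched on both strands, matched the KCNH5 window 34 bases before the start and the KCNN1 window at 5 positions, and did not match the other 3. The TATA box TATAAA, the SOX core CTTTGT and the left arm of the REST site, TTCAGCACC, matched none of the 5.

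RefSeq windows were at hand for 72 of the 96 genes. Their median CpG ratio was 0.63, against 0.76 over 15843 protein-coding promoters, and 52.8% against 65.5% lay above 0.6. The 9 windows of genes with H3K4me3 in all 6 libraries and no H3K27me3 had a median ratio of 0.91, the 11 with both marks 0.78, and the 26 with neither mark 0.3. The 11 windows of genes with H3K4me3 in more V16D/H19 than V16D/CTL libraries had a median of 0.81 and ranged from 0.5 to 1.01. GC boxes were found in 61.1% of the KCN windows and in 58.3% of all, TATA boxes in 9.72% and 9.75%, the SOX core in 12.5% and 13.0%, and the REST arm in 2 KCN windows, 2.78%, against 0.391% of all. A match is a description of the letters and was not tested as a binding site.

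Many potassium channel promoters carried H3K27me3, and many carried both marks. H3K27me3 was called in all 6 libraries at 36 KCN promoters (37.5%), against 6.44% of all promoters. H3K4me3 was called in all 6 at 37 (38.5%), against 60.8% of all. Both marks were present in all 6 libraries at 16 KCN promoters (16.7%), against 2.91% of all. They included KCNA4, KCNC1, KCNC2, KCNC4, KCNF1, KCNH1, KCNH3, KCNIP4, KCNJ4, KCNJ5, KCNK13, KCNMB4, KCNS2 and KCNT2. These shares describe the family and carry no test.

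By family, the voltage-gated channels carried the marks most often. Of 40 voltage-gated alpha subunit genes, 20 had H3K4me3 and 22 had H3K27me3 in all 6 libraries, 10 had both, and only 4 had neither in any library. Of 17 auxiliary or regulatory genes, 10 had neither mark, and 4 and 3 had H3K4me3 and H3K27me3 in all 6. Inward rectifiers (16 genes) had neither mark at 7 promoters, tandem-pore channels (15 genes) at 6, and the calcium- or sodium-activated group (8 genes) at 3.

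H3K4me3 peaks were higher where H3K27me3 was absent, with overlap between the classes. Height is given as MACS2's fold enrichment over input at the highest peak overlapping the promoter. The 14 genes with H3K4me3 in all 6 libraries and no H3K27me3 had a median of 35.0, taken over the medians of the genes, with KCNE4 lowest at 8.05 and KCNAB2 highest at 58.9. They included the large-conductance calcium-activated channel KCNMA1, the sulphonylurea-sensitive inward rectifier KCNJ11 and the leak channel KCNK1. The 16 genes with both marks had a median of 9.33, from 5.99 at KCNF1 to 38.1 at KCNMB4. In H3K27me3 the same 16 had a median of 4.32, and the 5 genes with H3K27me3 alone (KCNA3, KCNH7, KCNIP1, KCNJ3 and KCNK4) had 4.35.

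**Figure D1:**
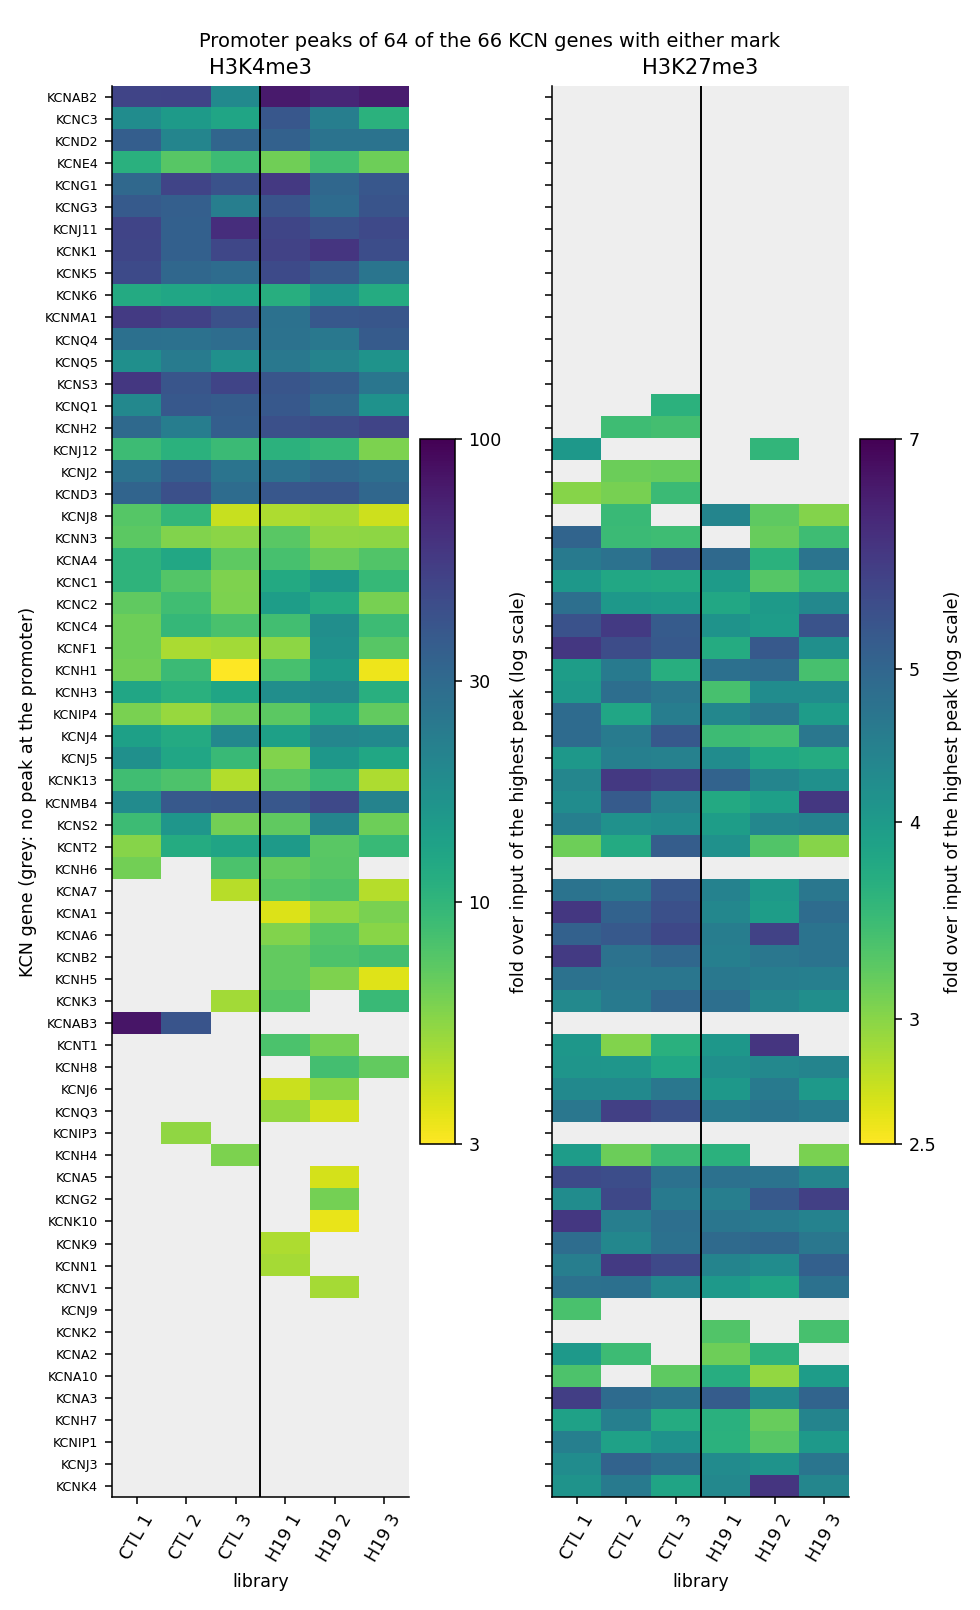
Fold over input (colour, log scale) of the highest peak at each promoter for 64 of the 66 KCN genes with either mark, by library, H3K4me3 left and H3K27me3 right, grey where no peak was called. Below the genes with H3K4me3 in all 6 libraries lies a block with H3K27me3 at most genes and H3K4me3 mostly in V16D/H19 libraries only. In this block KCNH6, KCNAB3 and KCNIP3 have no H3K27me3 peak.

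The comparison of V16D/H19 with V16D/CTL asked whether H19 overexpression was accompanied by changes in either mark. More potassium channel promoters had H3K4me3 in V16D/H19. The number was 39, 39 and 41 in the V16D/CTL libraries and 49, 51 and 44 in the V16D/H19 libraries, or 39.7 ± 1.15 and 48.0 ± 3.61 (mean ± SD, n = 3). The groups did not overlap, and V16D/H19 replicate 3 lay closest to the controls. Over all genes the numbers were 12257, 12210 and 12259 against 12392, 12450 and 12240, which overlapped. V16D/H19 replicates 1 and 2 also had the longest H3K4me3 peak lists, 21934 and 21886 peaks, and replicate 3 the shortest, 20048. With every list cut to the 20048 strongest peaks, the KCN numbers were 39, 39 and 40 against 45, 48 and 44.

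H3K27me3 was called at slightly fewer KCN promoters in V16D/H19. It was called at 44 KCN promoters in each V16D/CTL library and at 42, 42 and 41 in V16D/H19, and over all genes at 2008 to 2255 promoters in V16D/CTL and 1795 to 1941 in V16D/H19. Promoters with both marks in the libraries of the same number were 19, 21 and 24 KCN promoters for V16D/CTL against 28, 32 and 25 for V16D/H19. Over all genes, promoters with both marks numbered 1027, 1110 and 1149 against 1001, 1096 and 994. The direction among KCN promoters turned with stricter peaks, which left 3, 4 and 3 against 0, 2 and 3. The stricter cut left fewer H3K27me3 peaks genome-wide in every V16D/H19 library. They numbered 510, 632 and 699 in V16D/CTL against 142, 160 and 189 in V16D/H19.

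**Figure D2:**
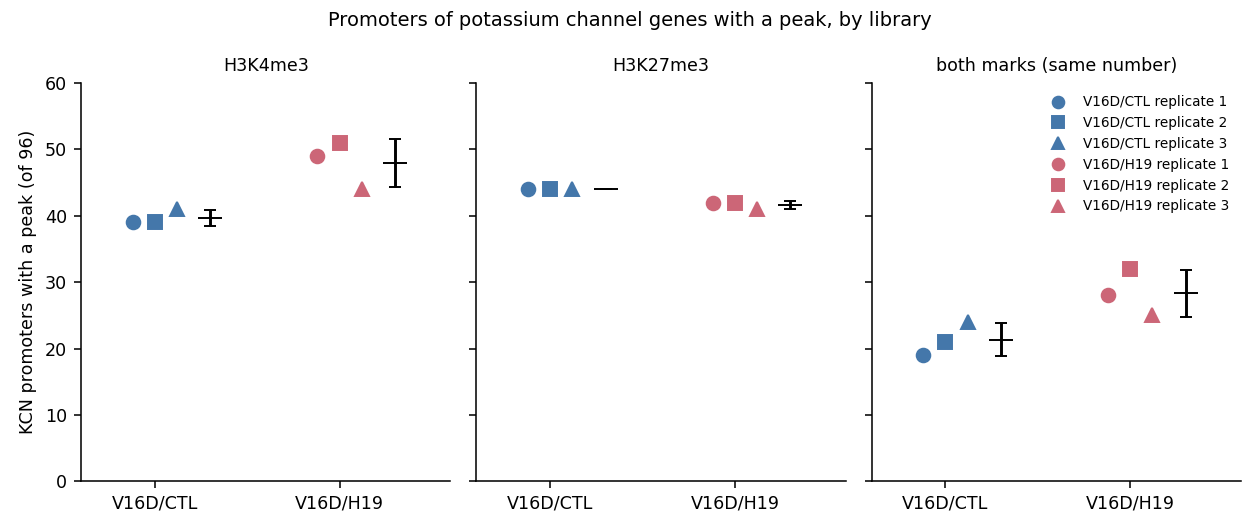
Number of KCN promoters, of 96, with an H3K4me3 peak, an H3K27me3 peak, or both in the libraries of the same number. Points are libraries, and the black mark and bar give the mean and SD of 3. The H3K4me3 points of V16D/H19 lie between 44 and 51 and those of V16D/CTL between 39 and 41.

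Counted gene by gene, 16 KCN promoters (16.7%) had H3K4me3 in more V16D/H19 than V16D/CTL libraries, against a background of 2.00% of all promoters. It was called in fewer at 3 (3.12%), against 0.966%. In either direction, KCN promoters had H3K4me3 in 1 to 5 libraries more often than all promoters, 20.8% against 3.4%. All 16 also carried H3K27me3 in some library, and 15 of them in all 6. They were KCNA1, KCNA5, KCNA6, KCNA7, KCNB2, KCNG2, KCNH5, KCNH8, KCNJ6, KCNK3, KCNK9, KCNK10, KCNN1, KCNQ3, KCNT1 and KCNV1. Voltage-gated alpha subunits made up 10 of the 16, and 22 of the 36 KCN promoters with H3K27me3 in all 6 libraries. Among promoters with H3K27me3 in all 6 libraries, H3K4me3 was called in more V16D/H19 libraries at 15 of 36 KCN promoters (41.7%) and at 182 of 1231 others (14.8%). None of those 36 had it in fewer, against 32 of the others (2.6%). At 12 of the 16 genes the H3K4me3 peak was missing from at least 1 V16D/H19 library or present in a V16D/CTL library. Near the starts of KCNH8, KCNK10 and KCNN1, H3K4me3 peaks were called in every V16D/CTL library as well. Within 5 kb they covered 640, 496 and 381 bases at KCNH8, 704, 590 and 371 at KCNK10, and 1336, 1437 and 995 at KCNN1. At KCNK9 such peaks covered 250, 218 and 0 bases in V16D/CTL.

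Of the 3 genes with fewer, KCNAB3, which encodes a beta subunit, had a fold of 82.3 and 40.3 in V16D/CTL replicates 1 and 2 and no peak in the other 4 libraries. The bases covered within 5 kb of its start were 2635, 3087 and 2615 in V16D/CTL against 2615, 2566 and 2630 in V16D/H19, so that H3K4me3 peaks were called near the start in every library. KCNIP3 and KCNH4 had a weak peak in 1 V16D/CTL library each.

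In all, 4 genes, or 4.17% of the family, had an H3K4me3 promoter peak in all 3 V16D/H19 libraries and in no V16D/CTL library, against 0.213% of all promoters. KCNA1 was no longer among them with lists of equal length, with a window of 500 bases or with stricter peaks (−log10 q of at least 5). KCNH5 was lost with stricter peaks, whereas 7 genes met the rule without V16D/H19 replicate 3. Gains over all promoters numbered 42, and they were 38 with stricter peaks and 92 without V16D/H19 replicate 3. All 4 of the KCN genes counted first encode voltage-gated alpha subunits. That group held 22 of the 36 KCN promoters with H3K27me3 in all 6 libraries. No KCN promoter did the reverse, and 0.0254% of all promoters did. KCNA1 and KCNA6 encode Shaker-type channels of axons, KCNB2 a delayed rectifier of neurons and secretory cells, and KCNH5 an ether-à-go-go type channel found mainly in brain.

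KCNA1 (gene ID 3736, start at position 4909905 of chromosome 12) had an H3K4me3 fold over input of 3.63, 5.31 and 6.05 in V16D/H19 replicates 1 to 3 and no peak in V16D/CTL. H3K27me3 at the same promoter was 5.92, 5.06 and 5.44 in V16D/CTL against 4.34, 3.94 and 4.86 in V16D/H19. The V16D/H19 values all lay below the controls, and after median centring the log2 difference was -0.19 ± 0.12 (SE), which did not pass the test (limma, adjusted p = 0.669). The H3K4me3 peaks covered 446, 1437 and 840 bases within 5 kb of the start.

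KCNA6 (gene ID 3742), whose promoter is printed above, had folds of 5.81, 7.59 and 5.57 in V16D/H19 and no H3K4me3 peak in V16D/CTL. Its H3K27me3 fold was 5.08, 5.25 and 5.6 in V16D/CTL against 4.52, 5.72 and 4.73 in V16D/H19, and the groups overlapped. The H3K4me3 peaks covered 431, 690 and 244 bases.

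KCNH5 (gene ID 27133), also printed above, had folds of 6.92, 5.89 and 3.55 in V16D/H19 and none in V16D/CTL. The peaks covered 949, 980 and 966 bases, the narrowest spread of the 4 genes. H3K27me3 stayed between 4.68 and 4.75 in V16D/CTL and between 4.48 and 4.63 in V16D/H19, with a log2 difference of 0.08 ± 0.10 after centring (limma, adjusted p = 0.861).

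KCNB2 (gene ID 9312) had folds of 6.92, 7.95 and 8.5 in V16D/H19 and covered widths of 413, 522 and 628 bases, against none in V16D/CTL. Its H3K27me3 fold was 5.87, 4.74 and 4.96 in V16D/CTL against 4.49, 4.65 and 4.72 in V16D/H19. Every V16D/H19 value was below every control, and the centred log2 difference was -0.03 ± 0.12 (limma, adjusted p = 0.936). KCNB2 lies on chromosome 8 beyond 45 Mb, where the median log2 difference in H3K4me3 fold over 274 tested promoters was -0.07, and where 2 of 402 promoters gained the mark in all 3 V16D/H19 libraries.

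KCND3 differed in the presence of H3K27me3 and not of H3K4me3. It encodes a channel of the transient outward current of heart and brain, and had weak H3K27me3 peaks of fold 3.01, 3.09 and 3.47 in V16D/CTL and none at the promoter in V16D/H19. Such a loss was seen at 1 KCN promoter (1.04%), against 0.290% of all promoters, and the gain at 0, against 0.0559%. H3K4me3 was strong throughout, at 32.2, 42.4 and 29.0 in V16D/CTL against 38.5, 39.3 and 30.8 in V16D/H19. Within 5 kb of the start, H3K27me3 peaks covered 717, 626 and 987 bases in V16D/CTL against 462, 0 and 721 in V16D/H19, which overlapped. The loss was absent with a window of 500 bases and with lists of equal length. In all, 8 KCN promoters (8.33%) had H3K27me3 in fewer V16D/H19 libraries and 3 (3.12%) in more, against 5.06% and 2.29% of all promoters.

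**Figure D3:**
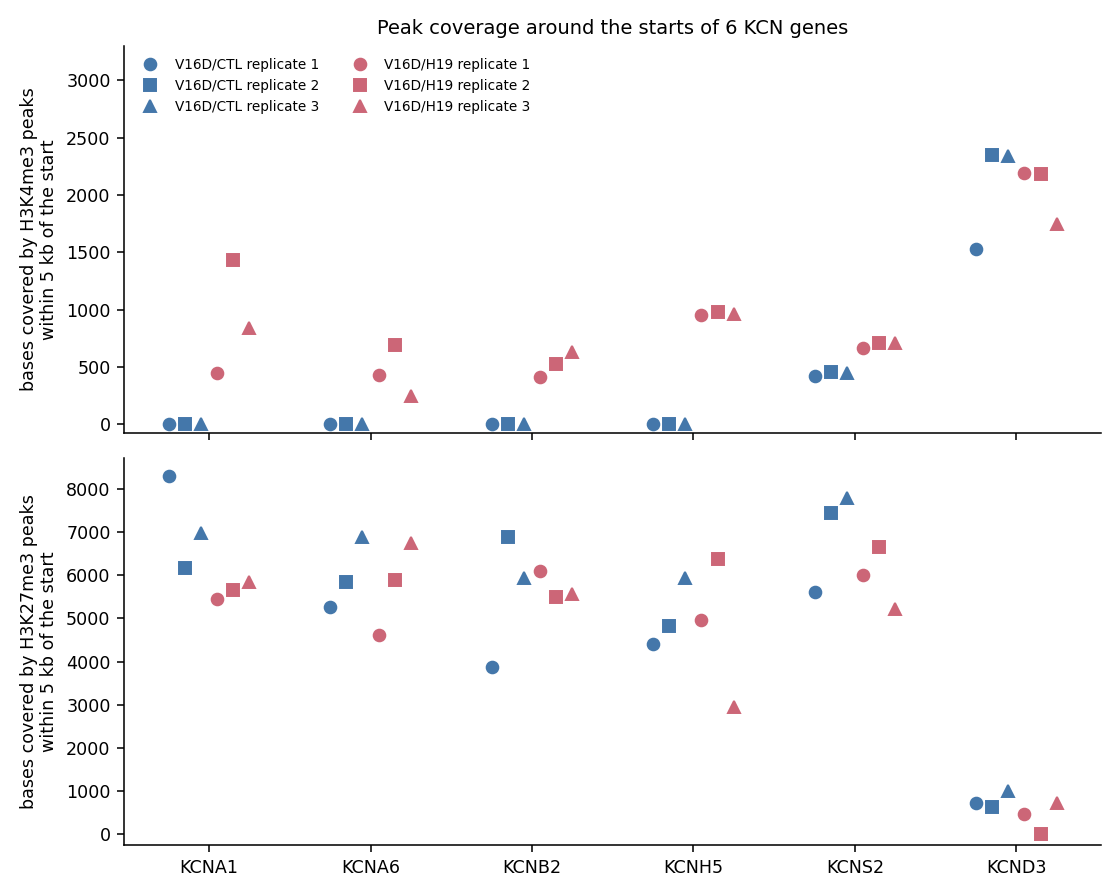
Bases covered by H3K4me3 peaks (top) and H3K27me3 peaks (bottom) within 5 kb of the start of 6 KCN genes, 1 point per library. V16D/CTL is at 0 for H3K4me3 at KCNA1, KCNA6, KCNB2 and KCNH5, whereas H3K27me3 coverage of those 4 genes lies between 2949 and 8293 bases in both groups.

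KCNA1 and KCNA6 are neighbours in a cluster with KCNA5 on chromosome 12. Over the 257.5 kb from 10 kb before the cluster to 10 kb after it (chr12:4799334-5056788), no H3K4me3 peak was called in any V16D/CTL library, and 3, 4 and 3 peaks were called in V16D/H19, covering 0.88, 2.33 and 1.08 kb. H3K27me3 peaks as called covered 46.15, 50.29 and 59.22 kb in V16D/CTL against 31.08, 36.14 and 36.68 kb in V16D/H19. The groups did not overlap in either mark. For H3K4me3 this largely follows from the choice of the cluster, since KCNA1 and KCNA6 had been picked for such peaks. For H3K27me3 the groups overlapped at each of KCNA1, KCNA5 and KCNA6 when only the gene and 1 kb either side were counted. The matching cluster of KCNA10, KCNA2 and KCNA3 on chromosome 1 (chr1:110507217-110684940) had H3K27me3 over 22.86, 30.26 and 28.0 kb in V16D/CTL against 22.07, 26.97 and 25.58 kb in V16D/H19, and those values overlapped. H3K4me3 there amounted to at most 0.7 kb in any library.

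Promoters with a peak in all 6 libraries could be compared by height. No promoter passed the test in either mark (limma on log2 fold, Benjamini-Hochberg adjusted p under 0.05), which gives a background of 0% of 11971 promoters for H3K4me3 and 0% of 1267 for H3K27me3. Of 37 KCN promoters tested in H3K4me3, 3 had an unadjusted p under 0.05, against 6.42% of all. The median log2 difference of the 37 was 0.00, against -0.01 over all, and the range was -0.64 to 1.0. Of 36 KCN promoters tested in H3K27me3, 2 had an unadjusted p under 0.05, against 9.31% of all, and the median difference was 0.02.

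Heights of some of these genes, chosen after their values were seen, are given as a description. KCNAB2, a beta subunit whose start lies within 2 kb of that of NPHP4, was at 48.8, 49.1 and 18.9 in V16D/CTL against 77.6, 68.7 and 76.5 in V16D/H19. KCNS3, a silent modifier subunit, was at 57.0, 39.6 and 48.7 and at 39.7, 35.4 and 25.1. The groups of KCNAB2 did not overlap, and those of KCNS3 did. In H3K27me3, KCNK4 was at 4.13, 4.6 and 3.84 against 4.33, 5.96 and 4.37, and KCNH8 at 4.09, 4.07 and 3.81 against 4.2, 4.33 and 4.4.

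A second measure, added after the data had been seen, was the number of bases covered by peaks within 5 kb of the start. It was compared with limma on the log2 scale, with 200 bases added and only promoters covered in at least 3 libraries kept. In H3K4me3, 0.588% of 13097 promoters passed, and 54 of those 77 were higher in V16D/H19. Among 51 KCN promoters 5 passed, all higher. KCNA1, KCNA6, KCNB2 and KCNH5 entered this test only through the V16D/H19 libraries, so that their passing adds nothing to the values above, and their fitted differences depend on the bases added.

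The remaining gene, KCNS2, was covered in every library. It encodes a silent subunit that modifies KCNB channels. Its H3K4me3 peaks covered 417, 456 and 451 bases in V16D/CTL against 666, 709 and 705 in V16D/H19, a log2 difference of 0.48 ± 0.06 (limma, adjusted p = 0.0258). The groups did not overlap. Leaving out any 1 library raised the adjusted p above 0.05, to between 0.0547 and 0.0859, and it lay between 0.0133 and 0.0835 over 5 other settings. Peak height at KCNS2 overlapped between the groups, at 9.05, 15.9 and 6.35 against 7.09, 20.4 and 6.51.

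In H3K27me3, 0.752% of 3059 promoters passed on covered bases, and 0 of 50 KCN promoters did, with 1 of the 50 at an unadjusted p under 0.05. The median log2 difference of the 50, relative to the library medians, was 0.19, against 0.07 over all, and 37 of the 50 lay above 0. Without centring the median was -0.19, against -0.31 over all.

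The authors' tables of differential sites held 12 H3K4me3 sites and 12 H3K27me3 sites assigned to KCN genes. For each site they give the mean of each group as log2 normalized reads, without replicate values, so that no SD can be given. H3K4me3 sites went both ways. Sites higher in V16D/H19 were listed at 7 KCN genes (7.29%), against 1.74% of all protein-coding genes, and sites lower at 4 (4.17%), against 5.38%. All 12 H3K27me3 sites were lower in V16D/H19. They belonged to 10 genes (10.4%), against 3.04% of all, and no KCN gene had a higher site, against 0.224%. Among genes covered by H3K27me3 in all 6 libraries, a lower site was listed at 9 of 48 KCN genes (18.8%) and at 478 of 2613 others (18.3%). Of the 1140 H3K27me3 sites listed over all genes, 1043 were lower.

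The H3K4me3 site with the largest difference was at KCNB2, 0.51 in V16D/CTL against 3.91 in V16D/H19. At KCNN1, a small-conductance calcium-activated channel, the site chr19:17966784-17967884 was at 1.61 and 4.49. It lies 15494 bases inside the gene, around the second start printed above, and had a peak in all 3 V16D/H19 libraries (folds 7.98, 10.2 and 5.32) and in no V16D/CTL library. KCNK2, a stretch- and lipid-sensitive leak channel, was alike. Its site chr1:215082350-215083863, also around a second start, was at 2.4 and 4.89, and peaks with folds of 8.42, 7.87 and 7.5 were called in V16D/H19 only. At the 5′ end of KCNK2 no H3K4me3 peak was called in any library. KCNH5 had a site at its promoter at 2.66 and 4.7.

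The other H3K4me3 sites differed less. KCNU1, a channel of sperm, had a site 4709 bases before its 5′ end at 3.94 and 5.29. KCNC1, a fast repolarising channel, was at 5.14 and 5.92, and its peak height was 10.2, 7.69 and 5.87 against 11.9, 15.4 and 9.5. KCNQ1, a channel of heart and epithelia, was at 7.19 and 7.66, whereas its peak height overlapped, at 19.4, 38.1 and 35.9 against 38.2, 30.5 and 16.7. KCNQ1 lies 443.7 kb from H19 on chromosome 11, and no peak of either mark was called within 10 kb of H19 in any library. Lower in V16D/H19 were KCNQ5 at 7.33 and 6.62, KCNMA1 at 10.08 and 9.58, KCNK1 at 9.71 and 9.47, and KCNN2. KCNN2 had an intronic site at 5.1 and 3.35 and another site at 10.42 and 10.21. The authors annotate the latter as promoter, but it lies 304288 bases inside the gene. At the 5′ end of KCNN2 no peak of either mark was called in any library. Peak heights did not all go the same way. KCNMA1 was at 55.0, 51.1 and 42.1 against 27.2, 38.0 and 39.0, without overlap. KCNQ5 was at 17.4, 23.2 and 17.3 against 24.4, 20.9 and 16.6, with a log2 difference of 0.03 after centring, and KCNK1 lay between 34.1 and 48.3 in V16D/CTL against 43.8 to 58.3 in V16D/H19, with one of 0.18. The groups overlapped at both genes. Peaks at the intronic KCNN2 site were called in V16D/CTL replicates 1 and 2 alone.

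**Figure D4:**
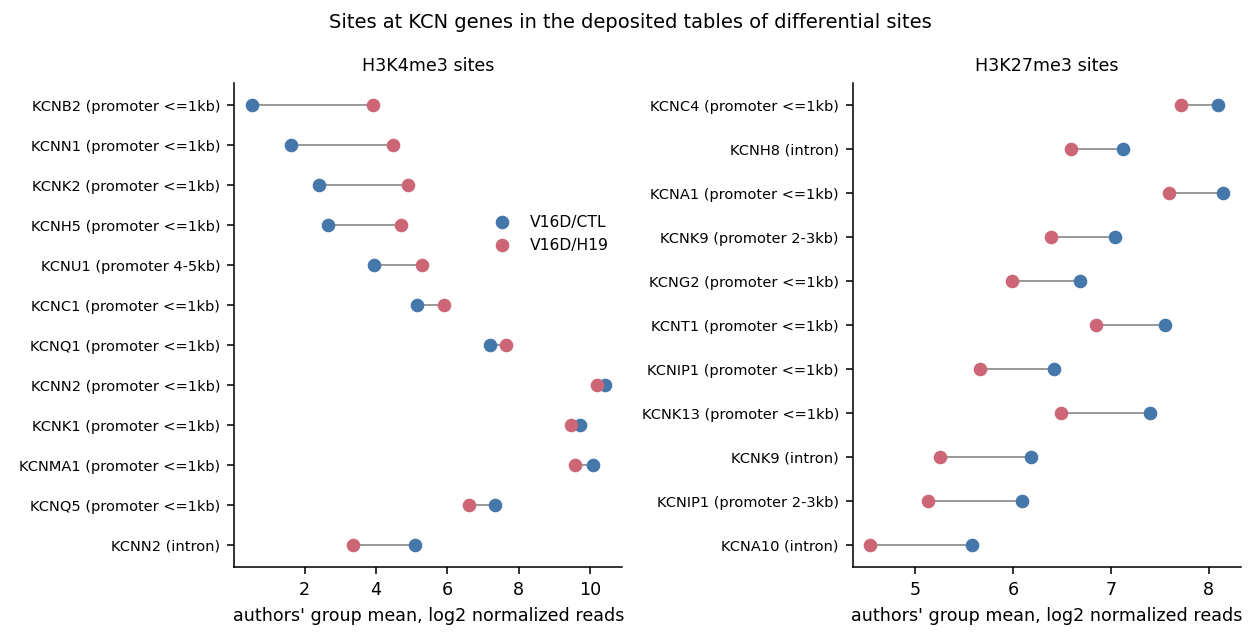
Authors' group means (log2 normalized reads, horizontal axis) of 23 of the 24 sites assigned to KCN genes, V16D/CTL in blue and V16D/H19 in red, H3K4me3 left and H3K27me3 right, with the authors' annotation of each site. The 11 H3K27me3 sites shown are lower in V16D/H19, and the 4 H3K4me3 sites with the largest differences have means of at most 2.66 in V16D/CTL.

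The H3K27me3 sites differed by between -0.37 and -1.04 on the log2 scale. The largest difference was at a site 34068 bases upstream of KCNA10, at 5.58 and 4.54. KCNIP1, a calcium sensor of transient potassium channels, had sites at its start (6.42 and 5.66) and just upstream (6.09 and 5.13). KCNK9, an acid-sensitive leak channel, had an intronic site at 6.18 and 5.25 and a second, 71847 bases inside the gene, at 7.04 and 6.39. KCNK13, another leak channel, was at 7.4 and 6.49, and peaks covered 3769, 4568 and 5526 bases of the site in V16D/CTL against 2002, 2334 and 3245 in V16D/H19. KCNT1, a sodium-activated channel, was at 7.55 and 6.85 at a site 77260 bases inside the gene. Peaks covered 7474, 8805 and 7751 bases of this site against 3023, 3613 and 2599. KCNG2, a silent subunit, was at 6.68 and 5.99 at a site 61398 bases inside the gene. KCNA1 was at 8.15 and 7.59 at its start. The sites at KCNC4 and KCNH8 are shown in the plot of group means.

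Over whole genes, with 1 kb added on either side, H3K27me3 peaks as called covered fewer bases in V16D/H19 at part of the family, which depended on the scaling. At 15 of 96 KCN genes (15.6%) every V16D/H19 library had fewer covered bases than any V16D/CTL library, against 4.35% of all genes, and the reverse held at 0, against 0.666%. Among genes covered in all 6 libraries the share was close to that of other genes, 14 of 48 KCN genes (29.2%) and 666 of 2613 others (25.5%). When each library was scaled to its covered Mb, 9 KCN genes (9.38%) were lower without overlap and 7 (7.29%) higher, against 2.58% and 1.79% of all genes. Summed over the KCN genes they were 432.3, 598.2 and 628.7 kb in V16D/CTL against 419.1, 460.5 and 474.4 kb in V16D/H19, and these sums overlapped. The genes named next were chosen after their values were seen, and were lower without overlap in the scaled values as well. KCNT1 was covered over 28139, 34573 and 31408 bases in V16D/CTL against 16624, 22174 and 21164 in V16D/H19. KCNK9 was covered over 24659, 24427 and 35411 bases against 17462, 13060 and 13490. KCNH8, an ether-à-go-go-like channel, had 16338, 23891 and 23847 against 8978, 9672 and 11942. KCNK13 had 5110, 9367 and 6968 against 1617, 2772 and 2550. Within 5 kb of the start alone, the centred log2 differences were 0.10 at KCNH8, 0.11 at KCNK9, -0.11 at KCNT1 and -0.54 at KCNK13, and none of the 4 passed the test. The 7 genes that were higher after scaling were KCNA3, KCNA10, KCNH1, KCNH5, KCNJ15, KCNK2 and KCNK10. KCNH5, which gained H3K4me3 in V16D/H19, was at 26535, 27106 and 25433 scaled bases against 37226, 31543 and 32053.

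**Figure D5:**
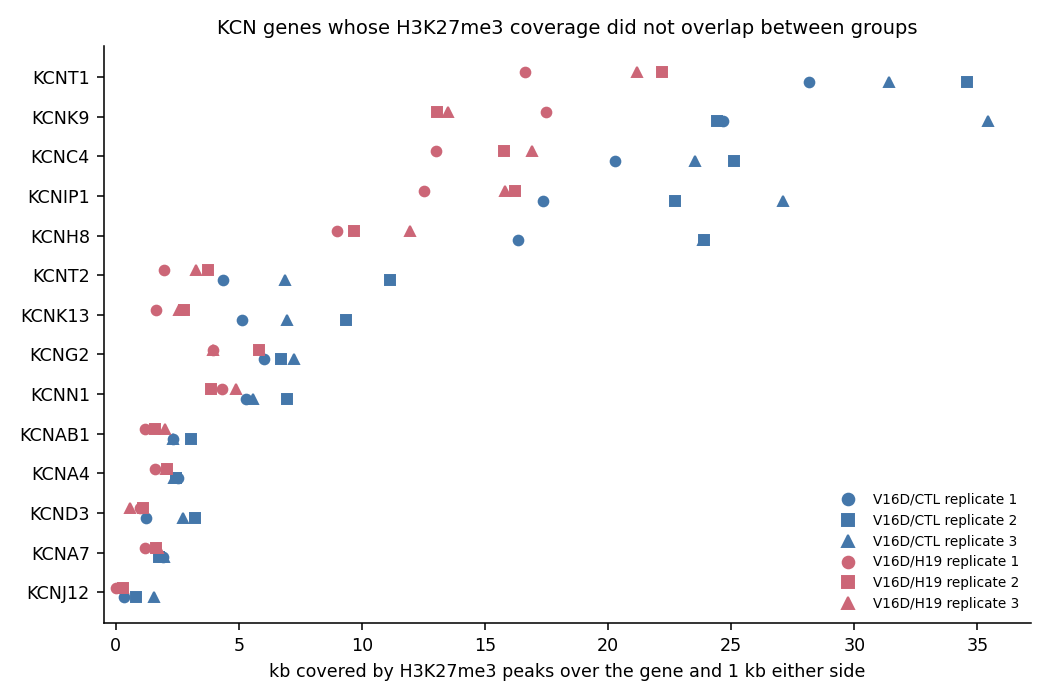
Kilobases covered by H3K27me3 peaks over the gene and 1 kb either side, 1 point per library, for 14 of the 15 KCN genes whose groups did not overlap. V16D/H19 points (red) lie left of all V16D/CTL points (blue) in each row, by the choice of the genes, and the highest single value is that of KCNK9 in V16D/CTL replicate 3.

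H3K4me3 coverage of whole genes was higher in every V16D/H19 library at 12 KCN genes (12.5%), against 6.28%, and lower at 3 (3.12%), against 4.20%. Among genes covered by H3K4me3 in all 6 libraries it was higher at 6 of 45 KCN genes (13.3%) and 1133 of 13302 others (8.52%). KCNT1 and KCNN1 were in both the H3K4me3 list and the H3K27me3 list. At KCNN1, H3K4me3 peaks covered 489, 331 and 236 bases in V16D/CTL against 1017, 1610 and 595 in V16D/H19, and H3K27me3 peaks 5270, 6965 and 5574 against 4295, 3868 and 4868. KCNC4 and KCNT2 also had more bases of H3K4me3 and fewer of H3K27me3 without overlap. After scaling, the H3K27me3 values of KCNN1 overlapped and those of the other 3 did not. KCNT2, a sodium-activated channel, had 1094, 861 and 891 bases of H3K4me3 against 1391, 1673 and 1801, and 4370, 11137 and 6875 bases of H3K27me3 against 1957, 3755 and 3247.

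Genes whose products work with potassium channels were compared with them. Of 11 partner genes (DPP6, DPP10, ABCC8, ABCC9, LRRC26, LRRC38, LRRC52, LRRC55, AMIGO1, CNTNAP2 and PEX5L), 5 had H3K4me3 and 4 had H3K27me3 in all 6 libraries, and 0 gained H3K4me3 in V16D/H19. Of 44 sodium, calcium and HCN channel genes, 21 had H3K4me3 and 17 had H3K27me3 in all 6. H3K4me3 was called in more V16D/H19 libraries at 3 of these 44 and in fewer at 0. Among the 96 KCN genes these numbers were 16 and 3, and over all promoters the shares were 2.00% and 0.966%. It was called in 3 V16D/H19 and 0 V16D/CTL libraries at 2 of the 44, CACNA1A and SCN9A. The same held at 4 of the 96 KCN genes and at 0.213% of all promoters, so that it was not limited to KCN genes. CACNA1A and SCN9A both carried H3K27me3 in all 6. CACNA1A encodes a presynaptic calcium channel and SCN9A a sodium channel of sensory neurons.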

How the data were processed

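H3K4me3 and H3K27me3 ChIP-seq libraries of V16D/CTL and V16D/H19 (3 per mark and group) were analysed through the deposited peak lists, with inputs used only by the authors as MACS2 controls. The authors called peaks per library with MACS2 (broad for H3K27me3) on hg38, and the deposited fold values are enrichment over input (a ratio) at each peak. The deposited −log10 p and −log10 q values rank the peaks and set the stricter cut. The aligner is not given in the sources used here. The deposited tables of differential sites, made by the authors with DiffBind and annotated with ChIPseeker, hold log2 group means of normalized reads over pooled replicates. Their fold-change, p-value and FDR columns hold the authors' own comparisons and were not used, other than through the listing of a site.

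Gene spans came from RefSeq (GRCh38.p14), with the strand from RefSeq for 72 KCN genes and by symbol from GENCODE for 24. Of 20037 protein-coding genes, 19675 had a strand and a start. A peak counted at a promoter when it overlapped the window of 1 kb either side by at least 1 base. Log2 fold of the highest peak was centred on the library median and tested with limma 3.58.1 (R 4.3.3) on the group, for promoters with a peak in all 6 libraries, with Benjamini-Hochberg adjustment over all promoters. The tests were checked on simulated data. P-values measure the spread between these libraries only. Named genes were those past the test, those with a promoter peak in 3 libraries of one group and 0 of the other, listed sites (at most 8 per mark and direction) and KCNB2. Coverage measures, and their scaling to the Mb covered in each library, were added after the data were seen. The members and lists were chosen with earlier results of these data known. Stricter peaks, lists of equal length, other windows, overlaps, normalisations and left-out libraries were tried as alternatives. Some genes are not reported here.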

Additional observations from a re-analysis of the deposited data

How the results depend on the processing

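The difference between V16D/H19 and V16D/CTL in the number of KCN promoters with H3K4me3 was 8.33 and lay between 5.67 and 10.7 over the other settings, and between 6.83 and 10.3 with any 1 library left out. For H3K27me3 it was -2.33, and -6.67 with stricter peaks (−log10 q of at least 5), -1.0 with 500 bases either side and -3.33 with any RefSeq start. With 1 library left out it lay between -2.5 and -2.0. For both marks it was 7.0, between 5.17 and 8.67 with 1 library left out, and reversed to -1.67 with stricter peaks. These left 0 to 4 KCN promoters with H3K27me3 per V16D/H19 library and 8 to 10 per V16D/CTL library. Genome-wide they left 142 to 189 H3K27me3 peaks per V16D/H19 library and 510 to 699 per V16D/CTL library. The number of KCN promoters that gained or lost H3K4me3 outright was 4, and 2 with stricter peaks (KCNA6 and KCNB2). With 1 library left out it lay between 4 and 7, and 7 were reached without V16D/H19 replicate 3. Gains over all promoters numbered 42, and 92 without that library. For H3K27me3 the number of KCN promoters was 1, and 0 with lists of equal length or 500 bases either side. With 1 library left out it lay between 1 and 3 (3 without V16D/CTL replicate 1, 2 without V16D/CTL replicate 2 or V16D/H19 replicate 2). Losses of H3K27me3 over all promoters numbered 57, and 116 without V16D/CTL replicate 1. With stricter peaks the 1 gene was KCNA1, not KCND3.

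No KCN promoter differed in height except when missing peaks were set to a fold of 1, which gave 4 in H3K4me3 (KCNA1, KCNA6, KCNB2 and KCNH5) and 1 in H3K27me3 (KCND3). Stricter peaks left no KCN promoter to test in H3K27me3. With the replicate block 0 KCN promoters differed in either mark. Correlations between deviations of same-numbered libraries lay between -0.0676 and 0.0393, which cannot tell whether the numbers stand for a pairing. On covered H3K4me3 bases 5 KCN promoters passed, 2 with the replicate block (KCNB2 and KCNH5), 1 when all 6 libraries had to be covered (KCNS2), and between 3 and 5 with 1 library left out, with 3 without V16D/CTL replicate 2, V16D/CTL replicate 3 or V16D/H19 replicate 1. Without centring the median log2 difference in H3K27me3 fold over all promoters was -0.13, and in covered bases -0.31. Over whole genes, 15 KCN genes had fewer H3K27me3 bases without overlap and 0 more. These became 9 and 7 when scaled to covered Mb, and 8 and 6 when genes also had to be covered in all 6 libraries. With 1 library left out they lay between 15 and 31 (31 without V16D/CTL replicate 1) and between 0 and 5 (5 without V16D/CTL replicate 3, 2 without V16D/H19 replicate 3, and 1 without V16D/CTL replicate 2 or V16D/H19 replicate 1). For H3K4me3, 12 had more and 3 fewer. The 12 became 6 among genes covered in all 6 libraries and 5 when also scaled, and with 1 library left out the numbers lay between 14 and 20 (20 without V16D/H19 replicate 3) and between 3 and 7 (7 without V16D/H19 replicate 1, 6 without V16D/CTL replicate 3, 5 without V16D/CTL replicate 1 or 2). With a library left out, the groups can separate more easily at any gene. The share of all genes at those settings is not given, so these leave-out counts cannot be set against a background. The causes were not tested. Read depth is not known from these files.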
